A study of Mus musculus with 13 samples.

Results

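The sites described here are stretches of the mouse genome at which the chromatin protein CTCF had a peak in both libraries from quiescent cells and in neither library from proliferating cells. Peaks of chromatin immunoprecipitation followed by sequencing (ChIP-seq) were joined into sites wherever they overlapped by at least 1 bp, over 12 libraries and chromosomes 1 to 19. This gave 112325 sites, 83343 of them with CTCF in at least 1 library, and 3298 met the rule. These gained sites were 2.94% of all sites and 3.96% of the sites with CTCF. The reverse class, with CTCF in both proliferating and no quiescent library, is called lost below and held 1965 sites, or 1.75% and 2.36%. A further 35630 sites had CTCF in all 4 CTCF libraries. The members were chosen by CTCF peak calls, so their number and every CTCF value are a description with no test.

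All libraries came from NU1 cells, 1 line of normal mouse urothelium that became immortal spontaneously and is labelled wild type. Antibodies against STAG1, STAG2 and CTCF, 25 ug per precipitation, were used on proliferating cells in complete medium and on quiescent cells. Quiescent cells had been grown to confluence and then given 1 uM rosiglitazone, an agonist of the nuclear receptor PPAR gamma, with 0.5 uM erlotinib, an inhibitor of the EGF receptor kinase. There were 2 biological replicates in each of the 6 groups, and confluence and the 2 drugs cannot be told apart. The lists hold no expression values, so the urothelial identity of the cells was not checked.

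CTCF is a zinc finger protein that binds a long DNA motif. Cohesin, a ring complex that extrudes loops of chromatin, often halts at CTCF, and the pairs of halted rings mark loop anchors and the borders of contact domains. Each ring carries either STAG1 or STAG2, and the STAG2 gene is recurrently mutated in bladder cancer. A CTCF site with no STAG peak is therefore one at which no halted cohesin was detected by these antibodies.

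Sequences are shown for 4 gained sites whose quiescent CTCF summit fell in a promoter listed by RefSeq on GRCm38.p6 (mm10), to show promoters with STAG and without, and with the motif and without; they were picked after their values were seen. Parp4 encodes a poly-ADP-ribose polymerase of vault particles, and its site had STAG peaks in all 8 STAG libraries. Plin2 encodes perilipin 2, the coat protein of lipid droplets and a PPAR gamma target, and its site had STAG in 7. The sites at the long noncoding RNA genes AV205837 and Gm35878 had STAG in 0. Each line gives 100 bases upstream of the start, 5′ to 3′ on the strand of the gene, with a match to the core CTCF motif in capitals. The intervals are chr14:56575519-56575618 on the + strand for Parp4, chr4:86670060-86670159 on the - strand for Plin2, chr16:31325040-31325139 on the + strand for AV205837 and chr11:119104973-119105072 on the + strand for Gm35878.
Parp4: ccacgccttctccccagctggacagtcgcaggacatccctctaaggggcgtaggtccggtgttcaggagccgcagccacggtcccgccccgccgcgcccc
Plin2: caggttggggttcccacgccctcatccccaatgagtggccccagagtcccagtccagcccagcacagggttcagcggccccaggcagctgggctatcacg
AV205837: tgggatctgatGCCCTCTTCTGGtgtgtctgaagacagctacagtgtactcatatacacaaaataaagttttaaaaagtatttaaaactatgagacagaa
Gm35878: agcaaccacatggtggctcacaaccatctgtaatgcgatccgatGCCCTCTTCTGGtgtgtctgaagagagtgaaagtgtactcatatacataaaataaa

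The motif searched was CCANNAGNNGGC on both strands, in windows of 250 bases before to 50 after each listed start. At AV205837 the match began at position -239 from the start, and the CTCF summits of the quiescent replicates lay at -211 and -232. At Gm35878 the match began at position -121, and the summits lay at -136 and -181. Neither the Parp4 nor the Plin2 promoter holds a match, and the Plin2 summits lay at 21 and 13, just past the stretch shown. Only this exact pattern was searched, so a promoter without a match can still hold a looser CTCF motif. The motif and STAG did not divide the promoters cleanly: the Gm42116 and Prkd2 promoters had 0 STAG peaks and no motif, and that of Selenov, a selenoprotein gene, had the motif and STAG in 5 libraries. Quiescent summits of gained sites fell in 33 listed promoters of 30 genes, at 28 sites. Of the 28 sites 24 had a STAG peak, where 14.1% of all gained sites had one, so these promoters do not stand for the class. The motif was in 3 of these 33 promoters, or 9.09%. It was in 797 of all 32851 listed promoters, or 2.43%, in 8.17% of the 3930 promoters with a quiescent summit of a site in all 4 CTCF libraries, and in 4.65% of the 172 at lost sites. With 3 matches, the gained promoters were not separated from the other CTCF promoters.

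Gained CTCF sites were weak. In quiescent replicate 1 their fold enrichment over background, a value of the authors' peak caller for each peak, ran from 2.33 to 12.9 with a median of 5.33. In quiescent replicate 2 it ran from 2.80 to 28.7 with a median of 6.90. At the sites in all 4 libraries the medians in the same lists were 10.5 and 16.0. Ranked within each list, the median gained site lay at percentile 23.2 of replicate 1 and 34.9 of replicate 2, and 0 and 10 members lay above the 80th percentile. Lost sites were as low in the proliferating lists, with medians of 5.49 and 5.49 at percentiles 24.1 and 26.4.

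**Figure D1:**
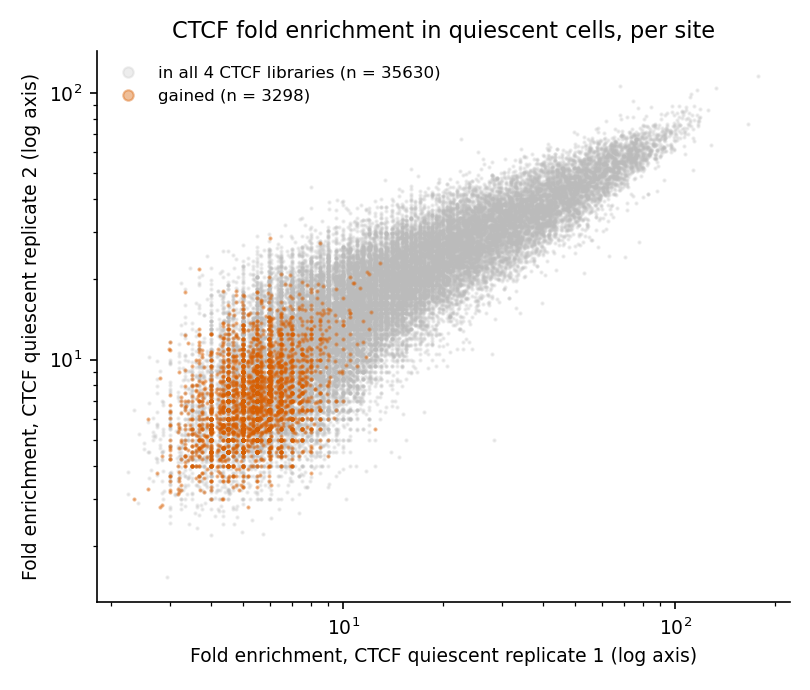
Fold enrichment of CTCF at each site in quiescent replicate 1 (horizontal, log axis) and replicate 2 (vertical, log axis), for the 3298 gained sites and the 35630 sites with CTCF in all 4 libraries. The gained sites fill the low corner, with medians of 5.33 and 6.90 against 10.5 and 16.0.

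At most gained sites the CTCF summits of the quiescent replicates lay close together. The peaks of a site were joined by overlap, which by itself keeps summits near each other. The gap between summits was not measured at the other classes of sites. The summits of a gained site lay a median of 23 bp apart, 77.5% of them within 50 bp and 90.7% within 100 bp. The fold was higher in replicate 2 at 2754 sites, or 83.5%, and that list was also the longest, with 71757 peaks against 51835 in replicate 1 and 57528 and 55168 in the proliferating lists. Across the 3298 sites the log2 folds of the replicates, which share the cut on weak peaks, had a Pearson correlation of 0.40. Members lay above the 60th percentile in both lists at 27 sites and under the 25th in both at 729. Their median width was 525 bp, against 546 bp at lost sites and 772 bp at sites in all 4 libraries.

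A site with no peak in a list had a signal under the caller's threshold, which is not a measured absence of CTCF. In bulk chromatin, binding in fewer cells and weaker binding in each cell cannot be told apart. Just inside the rule, the member of lowest rank, outside genes near Tnip1, had folds of 2.80 and 2.80, and the next, at Klf1, had 2.33 and 3.00. Just outside it, 15976 sites had CTCF in 1 quiescent and no proliferating library, and 5386 had CTCF in both quiescent and 1 proliferating library, with median quiescent folds of 5.67 and 8.34. The 4 pairings of 1 proliferating with 1 quiescent library held 7393 sites between them. Every library decided many calls: without proliferating replicate 1 the rule gave 6722 sites, without proliferating replicate 2 5260, without quiescent replicate 1 16889 and without quiescent replicate 2 5683. With the strongest 30000 peaks of each list it gave 1481, and with a −log10 q-value of at least 5 asked of the quiescent CTCF peaks alone it gave 1987.

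Most gained CTCF sites had no cohesin peak in either state. Of the 3298 sites, 2832, or 85.9%, had no peak in any of the 8 STAG1 and STAG2 libraries, against 41.4% of lost sites and 19.4% of sites in all 4 CTCF libraries. STAG was in at least 1 library at 466 gained sites, or 14.1%, and in all 8 at 44, or 1.33%. At lost sites those shares were 58.6% and 11.7%. The sites with CTCF in 1 quiescent library alone had STAG in any library at 13.8%: the 2385 of quiescent replicate 1 at 25.5% and the 13591 of replicate 2, the longest list, at 11.7%. Those with CTCF in 1 proliferating library alone had it at 41.3%. No p-value is given for these shares, since the sites were picked with earlier results known and sites of 1 library are not replicates.

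STAG1 had a peak at 250 gained sites in proliferating replicate 1, at 238 in proliferating replicate 2, at 167 in quiescent replicate 1 and at 172 in quiescent replicate 2. STAG2 had one at 261 and 178 in the proliferating and at 159 and 136 in the quiescent libraries. For both proteins each quiescent library was below each proliferating one. As shares, STAG1 covered 7.40% ± 0.257 (SD, n = 2) of gained sites in proliferating and 5.14% ± 0.107 (SD, n = 2) in quiescent cells. STAG2 covered 6.66% ± 1.78 (SD, n = 2) and 4.47% ± 0.493 (SD, n = 2). A fall was present over all sites too, from 37.5% to 30.1% for STAG1 and from 39.0% to 30.5% for STAG2. Over sites with CTCF in any library STAG1 went from 40.4% to 35.8% and STAG2 from 39.1% to 34.4%. At sites in all 4 CTCF libraries STAG1 went from 69.8% to 65.1% and STAG2 from 67.6% to 61.7%. The sizes of these falls were not tested against each other. STAG peaks at the gained sites were fewer in the state in which CTCF was called, and fewer as well in the genome at large.

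**Figure D2:**
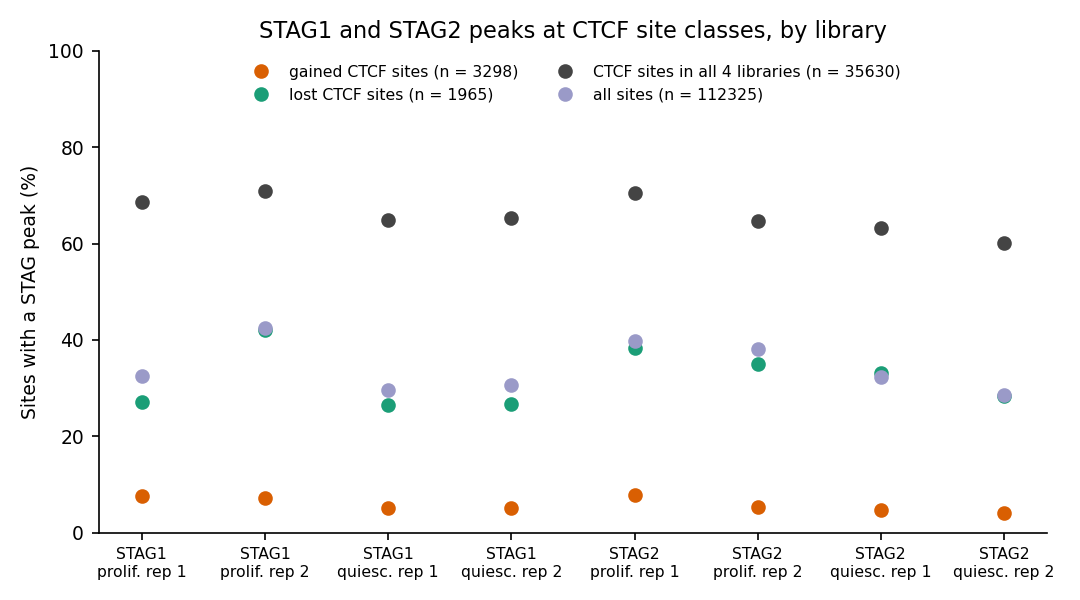
Share of sites with a STAG peak (vertical, percent) in each of the 8 STAG libraries (horizontal) for gained, lost and constant CTCF sites and for all sites; each point is 1 library. The gained sites lie between 4.12% and 7.91% in every library, below the other 3 classes.

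Few gained CTCF sites gained or lost a STAG peak in both replicates. A STAG1 peak in both quiescent and no proliferating STAG1 library was found at 4 of the 3298 sites, or 0.121%, where the share over all sites was 0.309%. For STAG2 it was also 4 sites, against 0.494% over all sites. Over the sites where STAG was called in quiescent cells the order was the reverse: the 4 were 3.77% of the 106 gained CTCF sites with STAG1 in both quiescent libraries, against 1.26% of all such sites, and 3.67% of the 109 with STAG2, against 1.94%. These shares rest on 4 sites each. A loss of STAG1, the reverse pattern, was found at 30 gained CTCF sites, or 0.910% against 2.14% over all sites, and a loss of STAG2 at 26, or 0.788% against 3.08%. Losses can occur only where STAG was called before. Of the 144 gained sites with STAG1 in both proliferating libraries 20.8% lost it, where the share over all such sites was 7.72%. Of the 143 with STAG2 18.2% lost it, against 10.2%. At lost CTCF sites, which are also weak, 13.9% and 11.4% were lost, and none of these differences was tested.

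The 4 sites that gained STAG2 with CTCF lay outside genes near Slfn9, Rundc3a and Ppp1r26 and inside Fntb, which encodes the beta subunit of farnesyltransferase. Near Slfn9, a Schlafen family gene, CTCF folds of 5.75 and 9.0 stood beside STAG2 folds of 4.75 and 5.25. That site was not free of cohesin before, since STAG1 had a fold of 7.25 in proliferating replicate 2 and of 4.75 and 4.25 in the quiescent replicates. In Fntb, CTCF folds of 3.40 and 5.25 stood beside STAG2 folds of 3.80 and 5.00, with no STAG1 peak.

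Sites that gained STAG1 with CTCF lay outside genes, nearest to Zfp703, Caap1, Steap4 and Slc30a10. The strongest was on chromosome 8 from 26686996 to 26687595, 290041 bp from Zfp703, which encodes a transcriptional corepressor. It had CTCF folds of 8.40 and 19.3, STAG1 folds of 7.42 and 5.44 in quiescent cells, and no STAG2 peak in any library. Near Steap4, a metalloreductase gene, STAG1 folds of 4.49 and 6.99 were joined by a STAG2 fold of 4.99 in 1 proliferating library. Most of these peaks were weak, and only the site near Zfp703 ranked above the 60th percentile for CTCF.

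The low STAG share was present at each CTCF rank. Sites were ranked by the mean of their 2 within-list percentiles. Among gained sites STAG was present in any library at 15.6% of the 863 in the lowest 20 percentiles, 12.3% of the 1661 from 20 to 40, 14.9% of the 696 from 40 to 60, and 29.5% of the 78 from 60 to 80. Sites in all 4 CTCF libraries, ranked in the same quiescent lists, held STAG at 81.6%, 67.7%, 66.1% and 79.0%. Lost sites, ranked in the proliferating lists, held it at 66.5%, 53.3%, 55.9% and 74.1%. Without proliferating CTCF replicate 1, STAG was at 27.4% of gained sites, against 45.0% of lost sites and 78.0% of those in all the remaining CTCF libraries. With 30000 peaks in each list these shares were 24.4%, 67.7% and 87.8%.

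**Figure D3:**
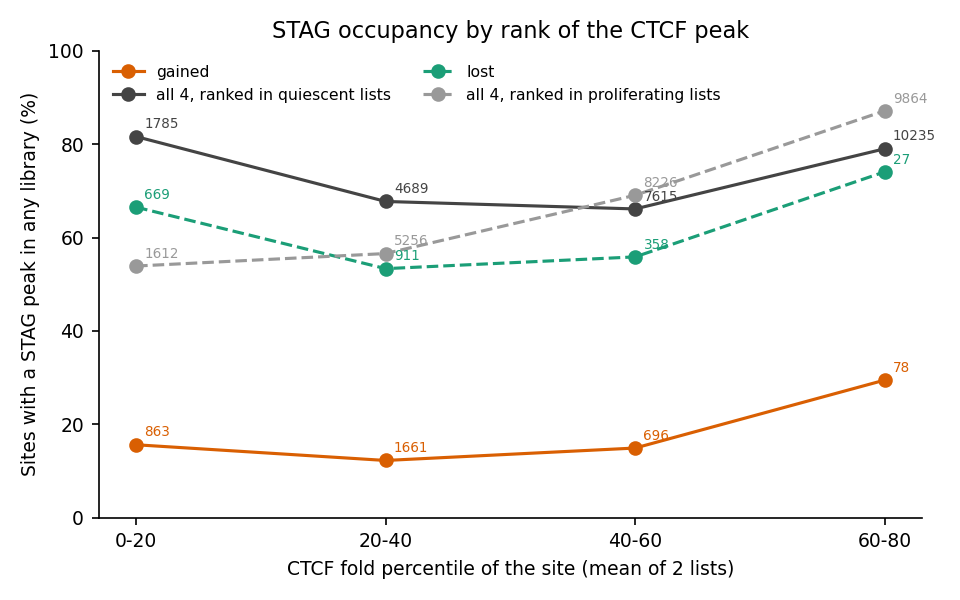
Share of sites with STAG in any library (vertical, percent) by the site's CTCF percentile (horizontal, mean of 2 lists); small numbers count the sites at each point. Gained sites lie between 12.3% and 29.5%, and the other classes above 50% at each rank.

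The 10 gained sites of highest rank had CTCF folds around the medians of the constant sites, from 8.48 to 12.9 in replicate 1 and from 15.1 to 27.4 in replicate 2. Of these 9 lacked STAG, near the 85.9% of all members, while 29.5% of the 78 members ranked from 60 to 80 had it. The first, inside Ap2b1, which encodes a subunit of the clathrin adaptor AP-2, lay on chromosome 11 from 83357334 to 83357910 and had CTCF folds of 12.9 and 23.1. The second, outside genes 8727 bp from the aldehyde reductase gene Akr1a1, lay on chromosome 4 from 116660077 to 116660726 and had folds of 12.0 and 21.0. The third lay inside Arf4, which encodes a small GTPase of the Golgi, with 11.8 and 21.2. All of these had 0 STAG peaks, as had 6 of the next 7, near Sbk1, Bmpr2, Gtf2ird1 and Myh15 and inside Mterf1a and Tanc2. The exception, 166743 bp from Serp2, had CTCF folds of 8.48 and 27.4 and a STAG1 fold of 11.5 in quiescent replicate 2 alone. Proliferating CTCF peaks lay near some of them: that at Arf4 was 554 bp away and that at Tanc2 1388 bp, while the nearest to the site by Myh15 was 162252 bp away.

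Few gained sites lay at the ends of genes. Within 1 kb of either end of a protein-coding gene lay 205 members, or 6.22%, against 22.8% of lost sites, 27.7% of sites in all 4 CTCF libraries and 16.6% of all sites. Inside genes, away from their ends, lay 1765, or 53.5%, and outside genes 1328, or 40.3%. At a listed start lay 105, or 3.18%, against 16.1% of lost sites and 20.2% of sites in all 4. CTCF sites without STAG were seldom at gene ends in any class: 4.91% of the gained, 8.48% of the lost and 7.92% of those in all 4 libraries. Among sites with STAG in any library, 14.2% of the gained were at gene ends, against 33.0% of the lost and 32.4% of those in all 4 libraries, so gained sites had the lowest share with and without STAG. The sites with CTCF in 1 quiescent library alone were at 5.89%.

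The 44 gained CTCF sites with STAG in all 8 libraries lay at gene ends more often than the gained sites as a whole. Of these, 24, or 54.5%, lay at a gene end, with a median of 484.5 bp to the nearest gene end against 12260.5 bp for all gained sites. Lost and constant sites with STAG in all 8 libraries were not counted for comparison. Sites joined from many peaks can also be wide, such as 1378 bp at Igf2r against a median of 525 bp for all gained sites. A wide site overlaps a window more easily, and the part of width was not tested. The highest ranked of the 44, inside the histone deacetylase gene Hdac4, was 81933 bp from a gene end, on chromosome 1 from 92113423 to 92114116. Its CTCF folds were 7.98 and 15.5, its STAG1 folds 15.0 and 13.5 in proliferating and 11.0 and 14.5 in quiescent cells, and its STAG2 folds 15.0 and 9.98, then 16.0 and 16.0. The states overlapped for STAG1, and the quiescent STAG2 folds were the higher ones. Over the whole STAG2 lists the median folds were also higher in quiescent cells, 9.48 and 9.81 against 7.98 and 6.99. At Igf2r, an imprinted gene for the receptor that clears insulin-like growth factor 2, a site over the start had CTCF folds of 4.99 and 7.48. Its STAG1 folds were 13 and 23.5 in proliferating and 10.5 and 15.0 in quiescent cells, and its STAG2 folds 14.5 and 17.0, then 20.5 and 21.0. At the start of Filip1l, CTCF was barely called, with folds of 3.17 and 3.14, while STAG folds ran from 9.17 to 24.2. Further members with STAG in all 8 were at Cul7, a ubiquitin ligase scaffold, at Kat8, a histone acetyltransferase, at the adjoining tumour suppressor genes Rassf1 and Tusc2, and at Kntc1, which encodes a kinetochore protein. The nearest proliferating CTCF peak was 50 bp away at Kntc1, 571 bp at Kat8, 1823 bp at Rassf1 and Tusc2 and 3452 bp at Cul7. CTCF folds at Rassf1 and Tusc2 were only 3.00 and 3.25.

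**Figure D4:**
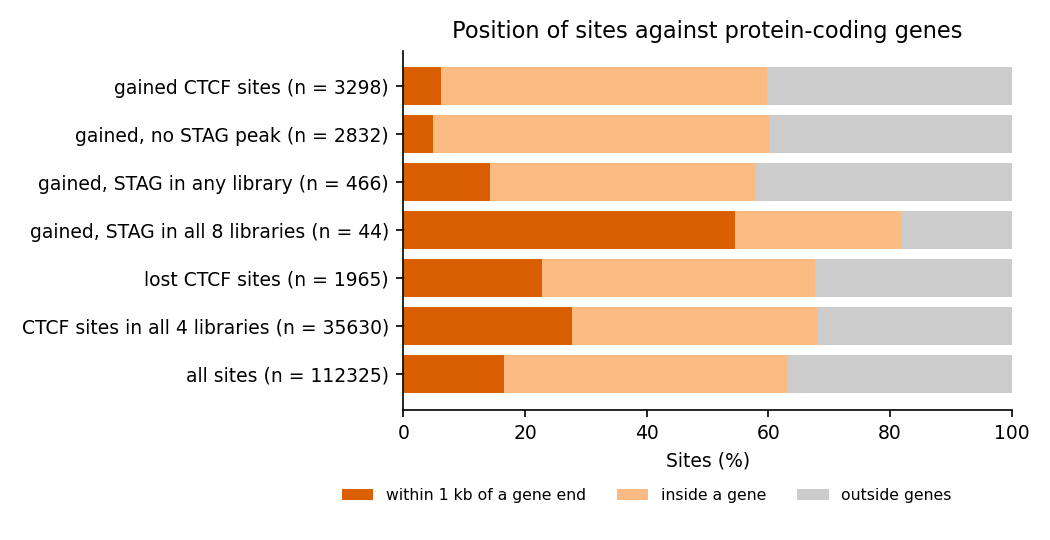
Share of sites (horizontal, percent) within 1 kb of an end of a protein-coding gene, inside a gene or outside genes, for classes of CTCF sites (rows). The gene-end part is 4.91% for gained sites without STAG and 54.5% for the 44 gained sites with STAG in all 8 libraries.

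The highest ranked gained sites at gene ends lay at Cyp4f14, a cytochrome P450 gene, Gnrh1, Gm5617, Arhgdia, Nupr1, Ly6g6f, Ccdc28b with Iqcc, Pip5k1a, H2-T-ps and Wdr53. Only the site at Cyp4f14 had a STAG peak, with a STAG1 fold of 7.48 in proliferating replicate 1. Its CTCF folds were 7.98 and 14.5. Several of these sites lay close to a CTCF peak of proliferating cells: 194 bp at Arhgdia, 235 bp at Cyp4f14, 254 bp at H2-T-ps and 413 bp at Pip5k1a. At Gm5617 it was 596 bp and at Ly6g6f 807 bp. The nearest was 6308 bp away at Wdr53, 9910 bp at Ccdc28b, 14358 bp at Nupr1 and 20244 bp at Gnrh1. Of all members 13.9% lay within 1 kb of such a peak.

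A part of the gained sites lay close to CTCF that was present in proliferating cells, and this was not particular to them. The median distance to the nearest proliferating CTCF peak was 5183.5 bp, and 459 members, or 13.9%, lay within 1 kb of one, 20 of them within 100 bp. Lost sites lay a median of 4950 bp from a quiescent CTCF peak, 16.9% within 1 kb. Within 1 kb of a site in all 4 CTCF libraries lay 8.52% of gained sites, against 11.3% of sites with CTCF in any library. The median distances to such a site were 9692 and 8807 bp. To the nearest quiescent STAG2 peak the median was 9602 bp for gained, 2369 bp for lost and 0 bp for constant sites. Without the members within 1 kb of a proliferating peak 2839 remained.

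Gained sites were spread over the genome, with some local groups. They fell in 1715 of the 4471 windows of 500 kb that held a CTCF site, 947 of them with 1 member and 109 with 5 or more. The median distance from 1 gained site to the next was 90229 bp, and 11.9% lay within 10 kb of another. The window with most, on chromosome 18 from 35500001 to 36000000, held 13 members and 2 lost sites among 92 sites with CTCF. It spans Matr3, which encodes a nuclear matrix protein, and the ubiquitin-conjugating enzyme gene Ube2d2a. All 13 members lacked STAG, as did 85.9% of all members. Windows with 10 members lay on chromosome 17 from 28000001 to 28500000, with Ppard and Fkbp5, on chromosome 17 from 46500001 to 47000000, with Srf and Ptk7, and on chromosome 9 from 21000001 to 21500000, with Icam1 and Keap1. Of the 87, 75 and 86 sites with CTCF in these windows, 11.5%, 13.3% and 11.6% were gained. Over all sites with CTCF the share was 3.96%, and the windows were picked for their number of members. Among single genes Macf1, Rere and Tnrc6c held 5 each, over 338, 340 and 110 kb. Trp53inp1, a p53-induced stress gene, held 4 in 17.9 kb.

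Chromosomes differed in their share of gained sites. Of the sites with CTCF in any library, 6.28% were gained on chromosome 17, 6.02% on chromosome 4, 5.34% on chromosome 14, 4.85% on chromosome 18 and 4.62% on chromosome 9. The lowest shares were 2.40% on chromosome 6 and 2.60% on chromosome 15. Lost sites ran the other way, with 1.65% on chromosome 17, 1.48% on chromosome 4 and 1.20% on chromosome 14, and 3.01% on chromosome 6 and 3.51% on chromosome 15.

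The whole CTCF lists shifted between these chromosomes too. Chromosome 4 held 5.80% and 5.38% of the peaks in the proliferating CTCF lists and 6.18% and 6.31% in the quiescent ones, so the groups did not overlap. Chromosome 17 held 4.22% and 4.13%, then 4.68% and 4.61%. Such a lack of overlap was common, since it was also found on chromosomes 2, 5, 6, 9, 12, 15, 17 and 19. On chromosome 14 the groups overlapped, with 3.31% and 3.81%, then 3.76% and 4.11%. Relative to proliferating cells the mean share of the CTCF lists was higher by 11.8% on chromosome 4, 11.2% on chromosome 17 and 10.5% on chromosome 14, and changed by -8.16% on chromosome 15 and -6.95% on chromosome 6. In the STAG lists the same shares changed by 0.468%, -1.41% and -3.15% on chromosomes 4, 17 and 14 and by 3.89% and -1.36% on chromosomes 15 and 6. The part of these shifts in the gained calls was not tested. The share of gained sites without STAG ran from 81.7% on chromosome 17 to 94.3% on chromosome 15.

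**Figure D5:**
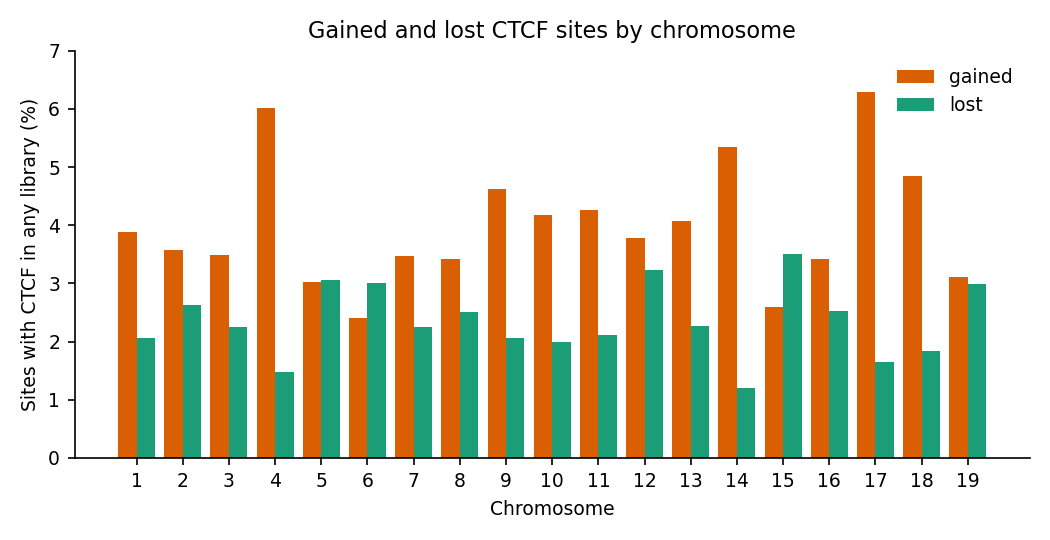
Gained and lost sites as a share of the sites with CTCF in any library (vertical, percent) on chromosomes 1 to 19 (horizontal). Gained bars are highest on chromosomes 17 and 4 (6.28% and 6.02%), where lost bars are among the lowest (1.65% and 1.48%).

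Genes of urothelial differentiation held gained sites inside the gene in 4 of 26 cases, or 15.4%, and at a gene end in 0. Over all 20661 protein-coding genes 8.12% held a member at an end or inside, and 1.10% at an end. The 4 were Pparg, the receptor that rosiglitazone activates, the junction genes Tjp1 and Ocln, and Cdh1, which encodes E-cadherin. In Pparg the site, on chromosome 6 from 115397458 to 115398000, had CTCF folds of 6.49 and 4.99. There STAG2 had folds of 14.0 and 8.0 and STAG1 10.5 in 1 library of proliferating cells, and neither had a peak in quiescent cells. The sites in Tjp1, Ocln and Cdh1 had 0 STAG peaks, as had 85.9% of all members. None of the 24 basal urothelial genes held a member. Lost sites were in 5 of the 26 differentiation genes, or 19.2%, and in 1 of the 24 basal genes, where all protein-coding genes stood at 6.38%.

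Among 28 PPAR gamma targets of lipid metabolism, Plin2, Acsl1 and Cpt1a, or 10.7%, held gained sites, and 5 genes, or 17.9%, held a lost one. Plin2 held one inside the gene and the one at its start whose upstream sequence is shown above, on chromosome 4 from 86669264 to 86670480. At the start CTCF folds were 5.49 and 4.49, STAG1 folds 7.48 and 12.0 in proliferating cells and 4.99 in 1 quiescent replicate, and STAG2 folds 12.0 and 8.48, then 8.98 and 9.48. The sites in Acsl1, an acyl-CoA synthetase gene, and Cpt1a, which encodes the enzyme that admits fatty acids to mitochondria, had 0 STAG peaks. Of all members 85.9% had none. Among 31 genes of the EGF receptor and MAPK response, only Spred1 and Spred2, inhibitors of the pathway, held a member, or 6.45%.

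Of 28 CDK inhibitor and growth arrest genes, Nupr1, Mxd4 and Rb1 held gained sites, or 10.7% against 8.12% of all protein-coding genes. Rb1, the retinoblastoma gene, held 2 inside the gene, of which 1 had STAG in all 8 libraries, with folds from 5.67 to 11.2, and the other in 0. At the start of Mxd4, a repressor that pairs with MAX, CTCF folds of 4.15 and 3.95 stood beside STAG in all 8 libraries. Of 52 DREAM and cell cycle genes 5, or 9.62%, held a member inside, E2f4, Lin9, Rbbp4, Tyms and Ccne2, and 0 held one at its own end. These members had 0 STAG peaks, as had 85.9% of all members.

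Genes of cohesin, its regulators and CTCF held members in 5 of 20 found, or 25.0% against 8.12% of all protein-coding genes. Stag1, Smc3, the cohesin release factor gene Wapl and Ctcf held them inside, and Zfp143 at an end. The strongest, in Wapl, had CTCF folds of 6.33 and 10.7. The 5 sites had 0 STAG peaks, as had 85.9% of all members. Lost sites were in 4 of the 20. Of 31 imprinted genes 3, or 9.68%, held a member, Igf2r, Ube3a and Inpp5f, and of 39 Hox genes 1, or 2.56%, Hoxb6. None of 57 clustered protocadherin genes, whose alternative promoters bind CTCF, held a gained site, while 24 held a lost one, or 42.1%. Genes of a cluster share sites, so these are not 24 independent cases. Marker genes of fibroblasts held a member in 1 of 12, of neurons in 1 of 12 and of immune cells in 0 of 14. Lost sites were in 3 of the neuron genes, or 25.0%, and in 0 of the fibroblast and immune genes. In the Hox list 5 genes, or 12.8%, held a lost site, against 6.38% of all protein-coding genes. With 0 to 5 genes holding a member in each list, no list was tested against the share over all genes. A long gene can hold a site more easily, and the part of gene length in these shares was not tested.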

How the data were processed

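The submitters' processing notes name MACS2, HOMER, BWA, Picard and bcl2fastq and the build mm10; versions and settings are not given in the sources used here. Deposited by the authors was 1 peak list per library, without pooling replicates, with a fold enrichment (a ratio), −log10 p-value, −log10 q-value and score for each peak. The control library has input in its title and IgG as its antibody; it was not analysed here, and which of these the folds were taken over is not known. The deposited lists hold no read totals, so depth is unknown and no counting interval is given.

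Sites were made with Python 3.11.15, pandas 2.3.3 and numpy 2.4.6; figures with matplotlib 3.10.9. Where a site held several peaks of a library, the highest fold was used. The joining and counting were tested on simulated data. Genes came from a RefSeq table of GRCm38.p6 without strand, so windows of 1 kb stood on each side of both ends. Listed starts and promoter sequences covered 79.6% of protein-coding genes. No genome was used, so summits outside listed promoters were not searched for the motif, and the sequences shown are from promoters in place of the highest ranked members.

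Named sites were the 10 of highest rank, the 10 highest at gene ends, those that gained STAG1 or STAG2 as well (up to 5 each), up to 4 genes for each gene list, and the 3 richest windows of 500 kb. A further gene of the DREAM and cohesin lists, a window tied at 10 members and Selenov, Gm42116 and Prkd2 were added after their values were seen. Sites with STAG in all 8 libraries, the lowest ranked members, the genes with most members and the promoters shown were picked after their values were seen. Members and gene lists were chosen with earlier results of these data known. Of the cohesin, imprinted and neuron lists 20, 31 and 12 genes were found on chromosomes 1 to 19.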

Additional observations from a re-analysis of the deposited data

How the results depend on the processing

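The number of gained sites was 3298 and kept within 1.5 times of that with 50000 peaks in each CTCF list, when all peaks needed a −log10 q of 5 or more, with CTCF peaks joined alone, without members near proliferating peaks, and with chromosomes X and Y. It was 1481 with 30000 peaks in each list and 1987 with the stricter q in the quiescent CTCF lists alone. Leaving out 1 CTCF library gave 5260 to 16889, since the rule then asks less. The share with STAG2 in both quiescent libraries was 3.31%; it was 2.62% with the stricter quiescent q and 2.69% to 8.45% with 1 CTCF or quiescent STAG2 library left out. For STAG1 the share was 3.21%; it was 4.09% with 50000 CTCF peaks, 8.58% with 30000 in each list and 2.36% to 10.6% with 1 CTCF or quiescent STAG1 library left out. The share at gene ends was 6.22%; it was 4.47% without members near proliferating peaks, 12.0% with windows of 2 kb, and 3.18% with listed starts alone, an alternative chosen after seeing the data; with 1 CTCF library left out it was 5.32% to 9.16%. Beyond the window's own width, the cause of these shifts was not tested. Over the 7 other settings STAG in any library was at 12.3% to 24.4% of gained, 57.8% to 67.7% of lost and 80.6% to 87.8% of constant sites. With 1 CTCF library left out these were 12.2% to 27.4%, 45.0% to 64.3% and 77.0% to 80.4%. No paired analysis was made, because the results come from no test. With 2 libraries a group, an SD is a coarse measure of spread.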

Other observations

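The motif matches upstream of AV205837 and Gm35878 lie in the same stretch of 27 bases, which was picked after the sequences were seen. As background, its letters are those of the B2 family of short interspersed repeats of rodents, copies of which are known to carry a CTCF motif; no repeat annotation was used here. The exact stretch occurs at 18 places in listed promoters on chromosomes 1 to 19. CTCF had a peak at 11 of the 18 in at least 1 library and at 7 in none. The peaks numbered 5 and 5 in the proliferating replicates and 7 and 11 in the quiescent replicates, and the longest list, quiescent replicate 2, held the most. Gained sites made up 2 of the places, AV205837 and Gm35878, from which the stretch was taken. By the rule these 2 have a peak in both quiescent lists and in neither proliferating list. That part of the counts was therefore fixed beforehand. Sites in all 4 CTCF libraries made up another 2. Among the 11 with CTCF, 1 had a STAG peak, at Gm30144, where STAG was in all 8 libraries. The other 10 had 0 STAG peaks.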
